A study of Saccharomyces cerevisiae with 6 samples.

Results

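The nuclear genes of the yeast respiratory chain and ATP synthase were followed on 6 two-color arrays that set dox-treated against untreated yeast. The 48 genes were picked by name for what their products do: 3 NADH dehydrogenases, 4 subunits of complex II, 9 of complex III, 7 of complex IV, 13 of ATP synthase, 2 inhibitors of ATP synthase and 10 factors that assemble complex IV (cytochrome c oxidase, COX). All 48 names were matched among the 6377 ORFs of the table, and each had a value on all 6 arrays. Treated and untreated cells were both TETp-HSC82 hsp82Δ arg4Δ lys5Δ car2Δ::URA3 in the R1158 background. In this strain dox shuts off the promoter of HSC82, the only Hsp90 gene that is left, and the other deletions serve the isotope labeling of arginine and lysine, so every value describes cells with these deletions, from a single strain. Dox was given at 5 μg/ml over 11 h in synthetic medium, to the heavy-labeled cells in culture 2 and to the light-labeled cells in culture 1, and the partner population of each culture received none. For each culture, 3 array hybridizations were made from separate RNA isolations, which makes them technical, so n is 2 cultures for the effect of dox.

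Yeast mitochondria pass electrons from NADH and succinate through ubiquinone to complex III, by cytochrome c to complex IV, and on to oxygen. The proton gradient that complexes III and IV build drives ATP synthase. Most subunits are encoded in the nucleus and imported, a few are encoded by mitochondrial DNA, and the genes of this group are best known for being held down while glucose is plentiful and raised when cells shift to respiration, in large part through the CCAAT-binding Hap2/3/4/5 complex. Budding yeast has no proton-pumping complex I, and uses single-protein NADH dehydrogenases in its place.

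HSC82 checked the labels: its log2 ratio of dox-treated over untreated cells was −5.48, −6.00 and −5.70 on the arrays of culture 2 and −6.43, −6.36 and −5.96 on those of culture 1. HSP82, the close relative of HSC82 that is deleted in treated and untreated cells alike, was listed as low as HSC82, with culture means of −5.97 and −6.63 in cultures 2 and 1. On the first and second arrays of culture 1 HSP82 stood at −6.64, the floor of the deposited ratios (the log2 of 0.01). LYS5 had no value on any array, ARG4 had 1, and CAR2 had 5, with culture means of −0.15 and −0.36 in cultures 2 and 1. The ratios spread less in culture 2 (SD over genes 0.40) than in culture 1 (0.54), and array medians lay between −0.03 and 0.02. Since the dyes were never swapped, an effect of dye on a single gene cannot be told apart from that of dox.

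Most genes for subunits of the complexes had ratios above 1 in dox-treated cells, by little in culture 2 and by much more in culture 1. Over the 38 genes other than the COX assembly factors, the median log2 ratio was 0.19 (1.14-fold) in culture 2 and 1.06 (2.09-fold) in culture 1, while the median of all 6290 genes tested was 0.02 and −0.02. The 10 COX assembly factors had medians of −0.18 and 0.02. A gene was called changed if the mean of both cultures was beyond 1.5-fold (0.58 on the log2 scale) with an unadjusted p below 0.05 in limma. By this criterion 19 of the 48 genes rose and 0 fell, where 5.74% of all genes tested rose and 4.74% fell. The 19 were SDH1, SDH2, SDH3, SDH4, NDE2, QCR10, RIP1, COX4, COX6, COX7, COX8, COX9, COX13, ATP3, ATP5, ATP7, ATP15, ATP16 and INH1. With the p adjusted over all genes by Benjamini-Hochberg, 0 of the 48 passed, against 5.36% of all genes in either direction. COX9 came nearest (adjusted p = 0.0531 in limma). Whatever the fold, 23 of the 48 had an unadjusted p below 0.05, as did 1833 of all 6290 genes. With each array centered on its median, 9 of the 19 calls were kept, those of SDH1, SDH2, QCR10, RIP1, COX6, COX8, COX9, ATP5 and ATP7. The means of the 10 lost calls hardly moved with centering (COX4 0.94 and NDE2 1.30, as without it), and their unadjusted p passed above 0.05. Each of the 9 was also kept under scale and quantile normalization. Culture 2 on its own had 0 of the 48 genes beyond 1.5-fold, where 4.32% of all genes were higher by that much. Culture 1 on its own had 35 higher beyond 1.5-fold and 1 lower, COX19, where 8.81% of all genes were higher by that much.

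**Figure D1:**
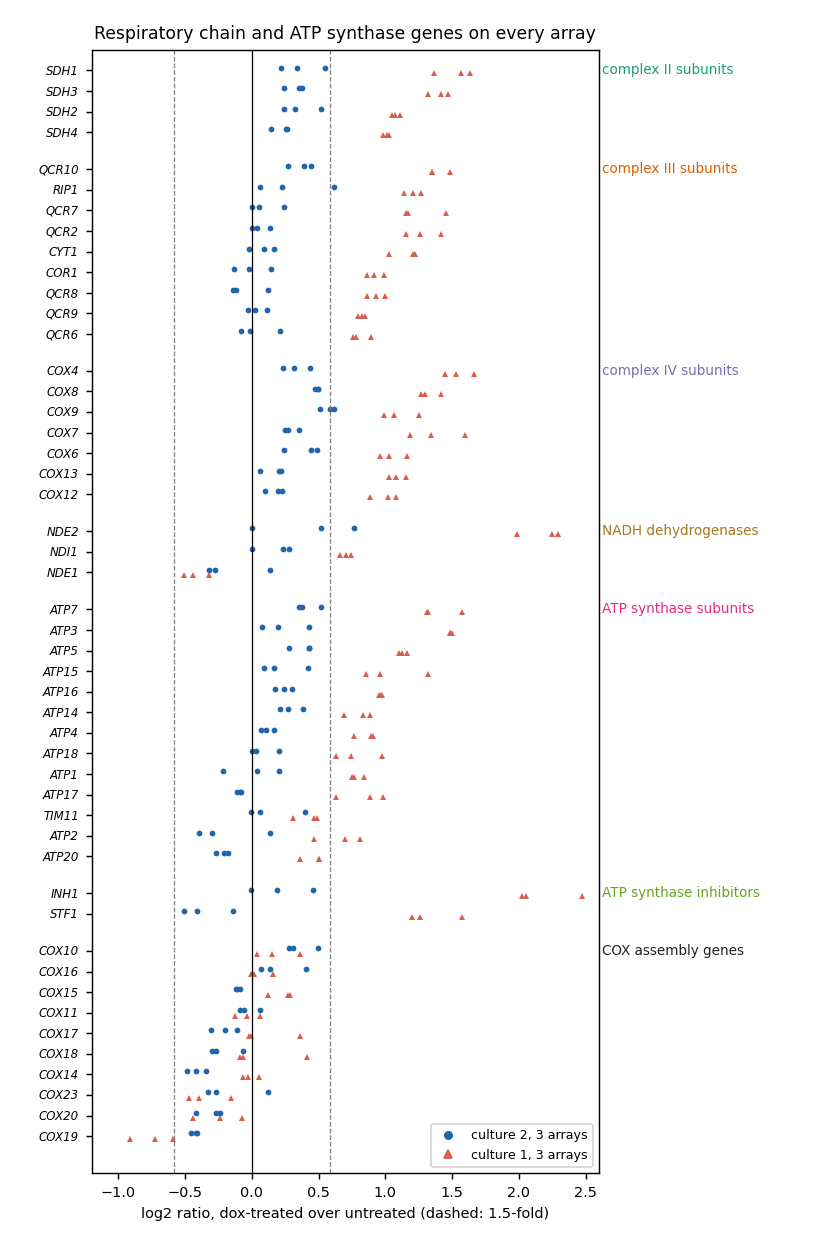
Log2 ratio of dox-treated over untreated cells (x axis) for each of the 48 genes (rows, by group and mean), with 3 arrays of culture 2 as circles and 3 of culture 1 as triangles; dashed lines mark 1.5-fold. In 36 of the 38 rows above the COX assembly genes, all circles lie left of all triangles, and TIM11 and NDE1 are the exceptions. Among all genes with values on every array, 17.8% have this order.

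Electrons enter the chain through the NADH dehydrogenases and complex II. NDE2, which encodes an external NADH dehydrogenase on the outer face of the inner membrane, had log2 ratios of 0.76, 0.00 and 0.52 in culture 2 and 2.25, 1.99 and 2.29 in culture 1. It rose by a mean of 1.30 (SE 0.40, adjusted p = 0.107 in limma, n = 2 cultures), the highest mean among the 48 genes. Its related gene NDE1, the other external dehydrogenase, went the other way on 5 of 6 arrays. NDE1 had 0.14, −0.32 and −0.28 in culture 2 and −0.44, −0.50 and −0.32 in culture 1 (mean −0.29, adjusted p = 0.21), and its cultures meet at −0.32. NDI1, the internal dehydrogenase that takes NADH from the matrix, had 0.23, 0.28 and 0.00 in culture 2 and 0.66, 0.70 and 0.74 in culture 1 (mean 0.44, below 1.5-fold).

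All 4 genes of complex II (succinate dehydrogenase, which also works in the TCA cycle) rose, against 5.74% of all genes tested. All 4 were higher on 6 of 6 arrays, as were 23.1% of all genes tested. The flavoprotein gene SDH1 had 0.55, 0.34 and 0.22 in culture 2 and 1.37, 1.56 and 1.64 in culture 1 (mean 0.95, SE 0.28, adjusted p = 0.0987). SDH3, for a membrane anchor, had 0.36, 0.38 and 0.24 in culture 2 and 1.42, 1.32 and 1.47 in culture 1 (mean 0.86). The iron-sulfur gene SDH2 averaged 0.36 and 1.08 in the same order, and the other anchor gene SDH4 averaged 0.22 and 1.01. Culture means within the complex thus ran from 0.22 to 0.37 in culture 2 and from 1.01 to 1.52 in culture 1.

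Complex III, the cytochrome bc1 complex, was near 0 in culture 2 for most genes and from 1.76-fold (QCR6) upward in culture 1. Its 9 genes had a median of 0.06 in culture 2 and 1.15 in culture 1. By the criterion 2 of the 9 rose, against 5.74% of all genes tested. QCR10, a small subunit, had 0.45, 0.27 and 0.39 in culture 2 and 1.35, 1.35 and 1.48 in culture 1 (mean 0.88, SE 0.25, adjusted p = 0.093). RIP1, the Rieske iron-sulfur protein, had 0.06, 0.62 and 0.22 in culture 2 and 1.21, 1.27 and 1.14 in culture 1 (mean 0.75, SE 0.23, adjusted p = 0.105). Its call was lost without the second array of culture 2 (mean 0.67). The cytochrome c1 gene CYT1 had 0.16, 0.09 and −0.02 in culture 2 and 1.03, 1.21 and 1.22 in culture 1, and its mean of 0.61 did not pass the p criterion. Both core proteins followed that pattern, with QCR2 at 0.06 in culture 2 and 1.28 in culture 1, and COR1 at −0.00 and 0.92. Of the other small subunits, QCR7 averaged 0.10 in culture 2 and 1.26 in culture 1, and QCR8 averaged −0.05 and 0.93. QCR6 (0.04 and 0.81) and QCR9 (0.04 and 0.82) had the lowest means of the complex in culture 1.

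Complex IV stood higher than complex III in culture 2, with a median of 0.33 against 0.06, and near it in culture 1, with 1.10 against 1.15. All 7 of its nuclear genes were higher on 6 of 6 arrays, as were 23.1% of all genes tested. By the criterion 6 of the 7 rose, against 5.74% of all genes tested. COX4, which encodes a zinc-binding subunit, had 0.24, 0.44 and 0.32 in culture 2 and 1.45, 1.53 and 1.66 in culture 1 (mean 0.94, SE 0.29, adjusted p = 0.109). COX8, a small membrane subunit, had 0.49, 0.49 and 0.48 in culture 2 and 1.30, 1.27 and 1.42 in culture 1 (mean 0.91, SE 0.22, adjusted p = 0.0723). COX9 had 0.58, 0.61 and 0.51 in culture 2 and 1.06, 0.99 and 1.25 in culture 1 (mean 0.84, SE 0.16). It was the gene of the 48 with the highest mean in culture 2, 0.57, which is 1.48-fold. COX7, another small subunit of the membrane part, averaged 0.29 in culture 2 and 1.37 in culture 1, and COX6, which faces the matrix, averaged 0.39 and 1.05. The peripheral subunit genes COX13 (0.16 and 1.09) and COX12 (0.17 and 0.99) were lowest in culture 2. They were on either side of the criterion with means of 0.63 and 0.58, and COX13 lost its call when any of 3 arrays was left out (the first or the third of culture 1, or the second of culture 2; means from 0.61 to 0.64).

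The genes of ATP synthase ranged widely, also within each part of the enzyme, and the parts were not tested against each other. Its 13 subunits had a median of 0.15 in culture 2 and 0.83 in culture 1. Of the 13, 5 rose, against 5.74% of all genes tested. The 4 genes of the peripheral stalk, ATP4, ATP5, ATP7 and ATP14, had medians of 0.33 and 0.99 in the same order. All 4 were higher on 6 of 6 arrays, as were 23.1% of all genes tested. ATP7 led the stalk genes with 0.35, 0.52 and 0.37 in culture 2 and 1.31, 1.32 and 1.57 in culture 1 (mean 0.91, SE 0.24, adjusted p = 0.0852). ATP5, the stalk protein that touches the top of the catalytic head, averaged 0.38 in culture 2 and 1.13 in culture 1 and rose too, while ATP14 (0.29 and 0.80) and ATP4 (0.11 and 0.85) did not reach 1.5-fold in the mean. The 5 genes of the F1 head and its central stalk had medians of 0.23 and 0.96. Within F1, the rotor subunit gene ATP3 had 0.07, 0.43 and 0.20 in culture 2 and 1.49 ± 0.01 (SD, n = 3 arrays) in culture 1 (mean 0.86, SE 0.30, adjusted p = 0.135), and its call was lost without the second array of culture 2 (mean 0.81). The genes of the α and β subunits, which carry out catalysis, were lower than ATP3 on all 6 arrays: ATP1 averaged 0.01 in culture 2 and 0.79 in culture 1. ATP2 had −0.39, 0.14 and −0.30 in culture 2 and 0.70, 0.81 and 0.46 in culture 1 (mean 0.24, adjusted p = 0.511). The remaining central stalk genes ATP15 (0.23 in culture 2 and 1.05 in culture 1) and ATP16 (0.24 and 0.96) rose narrowly, with means of 0.64 and 0.60. ATP15 lost its call without the third array of culture 1 (mean 0.57) or the first of culture 2 (mean 0.59).

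The small membrane subunits of ATP synthase had 0 of 4 genes called and medians of −0.01 in culture 2 and 0.62 in culture 1. Among all genes tested 5.74% rose and 4.74% fell, so few calls would fall in 4 genes. ATP20, which is needed for dimers of the enzyme, had −0.18, −0.21 and −0.27 in culture 2 and 0.50, 0.36 and 0.51 in culture 1 (mean 0.12, adjusted p = 0.706). It lay below 0 on every array of culture 2 and above 0 on every array of culture 1. TIM11, also needed for dimers, had 0.40, −0.00 and 0.06 in culture 2 and 0.47, 0.31 and 0.48 in culture 1 (mean 0.29), and was the only structural subunit gene whose arrays overlapped between the cultures. ATP17 averaged −0.09 in culture 2 and 0.83 in culture 1, and ATP18 averaged 0.08 and 0.78, near the 0.79 of ATP1 in culture 1.

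Both inhibitor genes were far apart between the cultures. INH1, whose protein blocks ATP hydrolysis by the enzyme when the gradient collapses, had 0.46, −0.01 and 0.19 in culture 2 and 2.06, 2.02 and 2.47 in culture 1 (mean 1.20, SE 0.44, adjusted p = 0.153). The call of INH1 was lost when any of 3 arrays was left out, the first or the third of culture 1 or the first of culture 2 (means from 1.13 to 1.23). STF1, a close relative of INH1 that acts on the same enzyme, had −0.14, −0.41 and −0.51 in culture 2 and 1.20, 1.26 and 1.58 in culture 1, so that it was lower on every array of culture 2 and higher on every array of culture 1 (mean 0.50, adjusted p = 0.44).

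The 10 COX assembly factors each had a lower mean ratio in culture 1 than any of the 33 subunit genes. Their culture means ran from −0.43 to 0.36 in culture 2 and from −0.74 to 0.22 in culture 1. Of the 10, 0 were called, where 5.74% of all genes tested rose and 4.74% fell. In a list this short those shares would amount to few calls. COX19, one of the factors tied to copper delivery, had −0.41, −0.42 and −0.46 in culture 2 and −0.72, −0.59 and −0.91 in culture 1 (mean −0.58, SE 0.13, adjusted p = 0.067). It was lower on 6 of 6 arrays and stayed just short of 1.5-fold (−0.584 against a limit of 0.585 in size). Leaving out either of the first 2 arrays of either culture carried it past the criterion, with means from −0.62 to −0.59. COX23, a relative of the copper chaperone COX17, averaged −0.16 in culture 2 and −0.34 in culture 1, and COX17 itself averaged −0.21 and 0.11. COX11, which helps insert copper, was close to 0 in both (−0.03 and −0.03). Of the heme A enzymes, COX10 had 0.28, 0.49 and 0.31 in culture 2 and 0.15, 0.04 and 0.36 in culture 1 (mean 0.27). It was the only assembly factor higher on 6 of 6 arrays, as were 23.1% of all genes tested. COX15, which acts after it, averaged −0.10 in culture 2 and 0.22 in culture 1. COX14, which ties synthesis of Cox1 to assembly, had −0.49, −0.35 and −0.42 in culture 2 and −0.06, −0.03 and 0.05 in culture 1. COX20 and COX18, which handle Cox2, averaged −0.31 and −0.21 in culture 2 and −0.25 and 0.09 in culture 1. COX16 averaged 0.20 and 0.06.

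How far the 2 cultures differed was tested with limma over the technical arrays, 3 against 3, as culture 2 minus culture 1. This compares these 2 cultures only: the isotope label of the treated cells and the culture itself changed together and cannot be told apart. Of the 48 genes, 33 had a lower ratio in culture 2 by more than 1.5-fold at an adjusted p below 0.05, and 0 had a higher one, against 4.71% and 2.77% of all genes tested. The difference was −1.97 for INH1 (SE 0.15, adjusted p = 0.000109), −1.75 for NDE2 (adjusted p = 0.000472) and next largest for STF1 (adjusted p = 0.000109), and it was between −0.66 and −1.26 for the other 30. In 39 of the 48, all arrays of culture 2 lay below all arrays of culture 1, as they did for 17.8% of the genes with values on all 6 arrays. Among the 38 genes outside the assembly list, 5 did not meet the criterion for a difference: COX9, ATP14, NDI1, TIM11 and NDE1. Of these, COX9 (−0.53, adjusted p = 0.00587), ATP14 (−0.51) and NDI1 (−0.53) missed the fold only, while TIM11 (−0.27, SE 0.12, adjusted p = 0.144) and NDE1 (0.27, adjusted p = 0.167) also missed the p. In the assembly list the differences ran from −0.40 for COX14 to 0.31 for COX19, and 0 of 10 met the criterion. COX14 (adjusted p = 0.0116) and COX15 (−0.33, adjusted p = 0.0272) missed the fold only. After the arrays had been scaled to equal spread, 31 of the 33 differences were kept.

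**Figure D2:**
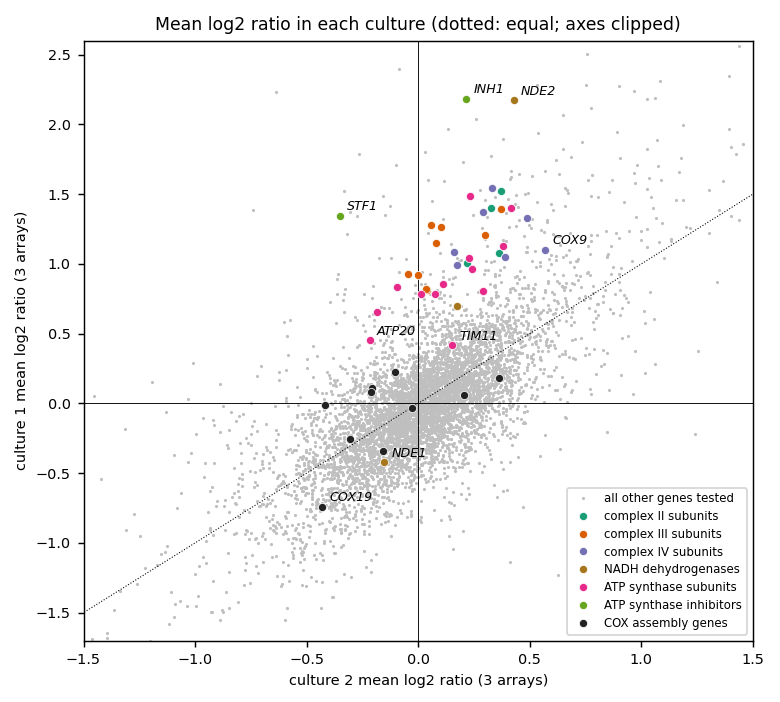
Mean log2 ratio of each gene over 3 arrays in culture 2 (x axis) and in culture 1 (y axis), for the 48 genes (colored by group) and all other genes tested that lie within the axes (gray); the dotted line marks equal values. All 33 subunit genes lie above the line, TIM11 (0.15 in culture 2 and 0.42 in culture 1) nearest to it; of the 48, INH1 (0.21 and 2.18) lies farthest above, NDE1 (−0.15 and −0.42) lies below, and the COX assembly genes (black) lie about it.

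The order of the genes was partly shared by the cultures. Across the 33 subunits of complexes II, III, IV and ATP synthase, the means of both cultures had a Pearson's r of 0.645 and a Spearman's rho of 0.669, set beside 0.673 and 0.677 across all 6290 genes. These are descriptions across genes of the same 6 arrays, and genes are not independent replicates. In culture 2, 31 of the 38 genes outside the assembly list had a mean above 0, as did 3320 of all 6290 genes. The exceptions in culture 2 were COR1, QCR8, ATP2, ATP17, ATP20, STF1 and NDE1, of which only NDE1 was also below 0 in culture 1.

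Other genes of the pathway were counted from lists by function. The 7 subunits that mitochondrial DNA encodes for the same complexes had medians of 0.05 in culture 2 and 0.76 in culture 1, close to those of ATP synthase. ATP6 was the only one called (0.18 in culture 2 and 1.02 in culture 1). Among all genes tested 5.74% rose. COX2 (0.11 and 1.32) and OLI1 (−0.12 and 1.42) were higher than ATP6 in culture 1, and COB (−0.13 and 0.68), COX1 (0.05 and 0.58), COX3 (0.02 and 0.76) and ATP8 (0.06 and 0.73) were lower. For all 7, each array of culture 2 lay below each array of culture 1, as for 17.8% of the genes with values on all 6 arrays. Of the isoform pairs, COX5A, the aerobic form of a complex IV subunit, had 0.73, 1.03 and 0.86 in culture 2 and 1.67, 1.75 and 1.39 in culture 1 (mean 1.24, SE 0.20, adjusted p = 0.0381), and its hypoxic form COX5B averaged −0.44 and −0.24. Cytochrome c, the carrier between complexes III and IV, was not called for either the aerobic CYC1 (0.08 and 0.65) or the hypoxic CYC7 (0.19 and 0.42).

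**Figure D3:**
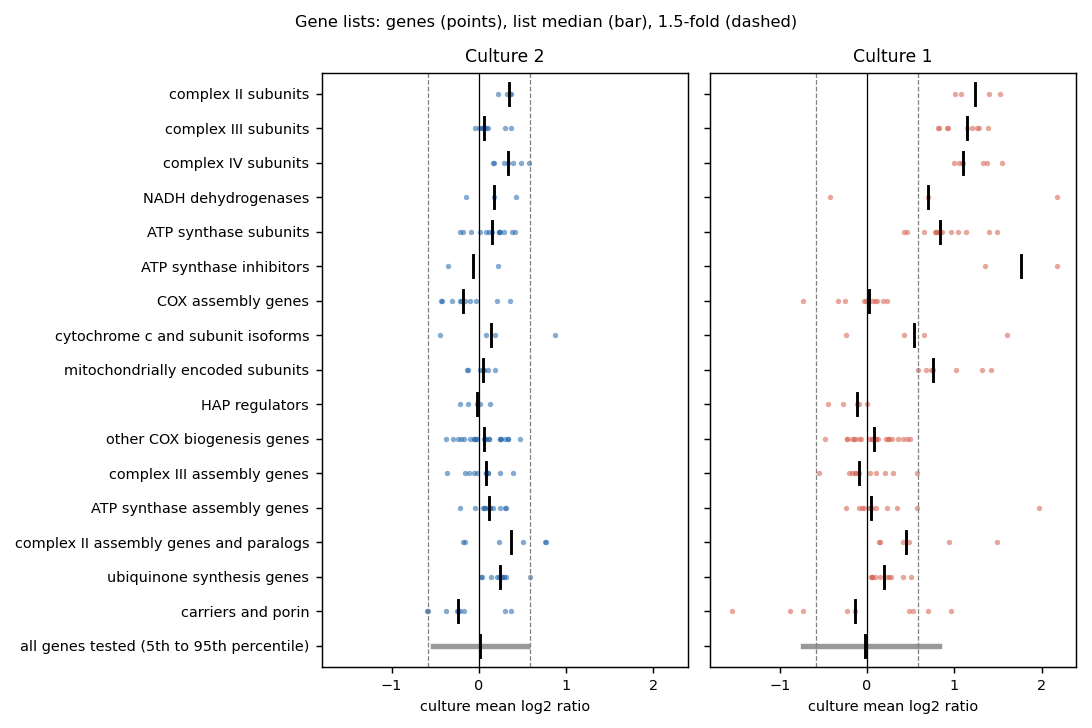
Culture mean log2 ratios of the genes in each list (points) with the list median (bar), in culture 2 (left) and culture 1 (right); the lowest row gives the median and the 5th to 95th percentile of all genes tested. Medians of the subunit lists are between 0.05 and 0.34 in culture 2 and between 0.76 and 1.24 in culture 1, and those of the assembly lists stay between −0.18 and 0.12 in both, apart from that of complex II with its paralogs.

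Few calls were made among the factors that build the complexes, where the shares of all genes (5.74% higher and 4.74% lower) would amount to few calls in lists this short. Of 22 further genes of complex IV biogenesis, 0 were called, with medians of 0.06 in culture 2 and 0.08 in culture 1. Of 11 assembly genes of complex III 0 were called (0.08 and −0.09), and of 12 of ATP synthase 0 (0.12 and 0.04). The 10 genes for synthesis of ubiquinone, the electron carrier ahead of complex III, had 0 calls. Like 2327 of all 6290 genes tested, all 10 were above 0 in both cultures. Their median of 0.24 in culture 2 was above the 0.19 of the 38 genes, and it was 0.19 in culture 1. SDH5, which attaches the flavin cofactor to Sdh1, averaged 0.23 in culture 2 and 0.41 in culture 1 and was not called; it was added after its values had been seen. One gene of the ATP synthase list stood apart, NCA3, with 0.05, 0.13 and 0.21 in culture 2 and 2.06, 2.00 and 1.85 in culture 1; it was named here after its values had been seen. The 5 regulator genes of the HAP group were not called either. HAP4, the activating subunit of the CCAAT-binding complex, had 0.13, −0.25 and −0.25 in culture 2 and −0.23, −0.53 and −0.59 in culture 1 (mean −0.29, adjusted p = 0.228), and HAP1, HAP2, HAP3 and HAP5 had means between −0.16 and 0.00. Transport across the mitochondrial membranes was mixed. Of 9 genes for carriers and porin, the phosphate carrier MIR1 rose (0.30 in culture 2 and 0.96 in culture 1). The dicarboxylate carrier DIC1 fell (−0.60 and −1.55), and no other was called. The means of 4 of the 9 had opposite signs in the cultures, and the list medians were −0.24 in culture 2 and −0.14 in culture 1.

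Of the paralogs of complex II genes, 2 rose, and these also passed the adjusted p. Among all genes tested 5.74% rose, and 5.36% passed the fold and the adjusted p in either direction. YJL045W, a minor copy of SDH1, had 0.87, 0.65 and 0.76 in culture 2 and 0.99, 0.91 and 0.92 in culture 1 (mean 0.85, SE 0.12, adjusted p = 0.0343). SHH3, related to SDH3, had 0.82, 0.85 and 0.66 in culture 2 and 1.49 ± 0.15 (SD, n = 3 arrays) in culture 1 (mean 1.13, adjusted p = 0.0406). SHH4, related to SDH4, averaged 0.50 and 0.48, below 1.5-fold, and was included after its values had been seen. The difference between the cultures was −0.18 for YJL045W (adjusted p = 0.178) and 0.02 for SHH4 (adjusted p = 0.853), against −1.15 for SDH1 and −0.79 for SDH4. SHH3 did differ between the cultures (−0.71, adjusted p = 0.00234), as its partner SDH3 did (−1.08). The gap between paralog and partner was not itself tested. The mean ratios of all 3 paralogs were higher than their complex II partners in culture 2, and those of YJL045W and SHH4 were lower in culture 1. Related genes can share signal on oligonucleotide probes, and the deleted HSP82 had ratios like those of HSC82. The part of shared signal in the ratios of these paralogs and of the isoform pairs was not tested.

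**Figure D4:**
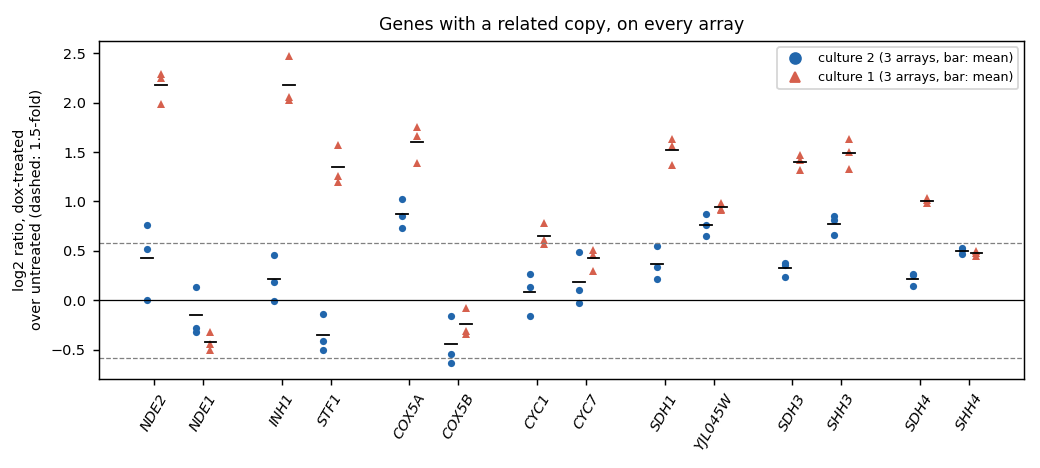
Log2 ratio of dox-treated over untreated cells (y axis) on each array for pairs of related genes, with culture 2 as circles and culture 1 as triangles, bars for the mean of 3 arrays, and dashed lines at 1.5-fold. NDE2 and NDE1 lie apart in culture 1 (2.18 and −0.42). SHH4 holds nearly the same value in both cultures (means of 0.50 in culture 2 and 0.48 in culture 1). The circles of YJL045W lie below its triangles (means of 0.76 and 0.94).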

How the data were processed

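RNA of dox-treated and untreated cells, in different Alexa Fluor dyes, shared each oligonucleotide array. The authors applied LOWESS in GeneSpring GX array by array and deposited 1 log2 ratio per ORF; background correction and spot filters are not given in the sources used here. That the scale is log2 was read from a recurring floor at −6.64, the log2 of 0.01; the direction comes from the titles and was checked on HSC82, and any further centering is unknown. Intensities were not used here. The precision of the dox effect rests on the culture means, which were the values tested. The technical arrays set the precision only of the difference between the cultures.

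Row names were turned into ORF names (208 hold a suffixed ORF such as that of QCR10) and matched to locus tags of the R64 RefSeq table (5797 of 6377 rows). No column of sample values was left unused (0). Array values were averaged by culture and tested against 0 with the lmFit and eBayes functions of limma 3.58.1 in R 4.3.3 on all 6290 genes with values in both cultures; the fit between cultures used 6288 genes. Calls followed the fold and p limits in the study's methods, which name no test. Code was tested on simulated data. The 48 genes and the further lists (86 of 89 genes on the arrays) were chosen with earlier results of these data known. All 48 are named, with every gene of the isoform, mitochondrially encoded and HAP lists and called genes of the others. Alternatives covered thresholds, replication, normalization and each array left out.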

Additional observations from a re-analysis of the deposited data

Results flagged for a closer look

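For each of the 48 genes, the highest and lowest of the 6 arrays were set against the others, and 2 genes had an array apart from the rest. The nominal rate of about 1 in 20 is for 6 values of a single sample. These arrays come from 2 cultures that differ for most of the genes, so that rate does not apply. The first array of culture 2 gave NDE1 a log2 ratio of 0.14, with −0.28 the next highest. COX18 had 0.42 on the third array of culture 1, with −0.07 the next highest. Neither gene was called changed.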

How the results depend on the processing

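The 19 calls rest on the mean of 2 unlike cultures. The count was 0 with culture 1 left out and 36 with culture 2 left out (fold alone), 0 with the adjusted p, 2 at 2-fold (NDE2 and INH1) and 9 with each array centered on its median, where the means of the lost calls hardly moved and only p crossed the limit. It was 15 after scale or quantile normalization, and 22 with the arrays as replicates or the culture as a random block. The adjusted p gave 22 in both as well, a combination added after the values had been seen. Both fits draw on technical arrays, the block with a single correlation for all genes. Their p therefore does not measure the spread between cultures for each gene. The count was 16 to 22 with an array left out, and 14 of the 19 calls were kept whichever array was removed. The median of the 38 genes other than assembly factors was 0.97 in culture 1 after scale normalization and 0.87 after quantile normalization, and 0.14 to 0.23 in culture 2 with an array left out. The count of genes that differed between the cultures, 33, was 27 to 38 under all alternatives tried, each time with the lower ratio in culture 2. No gene's mean changed sign under any normalization or with any array left out. COX12, QCR7 and CYT1 met the criterion without the third array of culture 2 (0.60, 0.71 and 0.64), and COX12 also without the second of culture 1 (0.61). A planned search of promoters for CCAAT motifs was not run, since no sequence was at hand. An exact sign test over 2 cultures cannot go below 0.5. Each array already holds treated and untreated cells of a culture, so the test of the ratios against 0 was itself paired. No further pairing was made.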
